A study of Equus caballus with 28 samples.

Results

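miR-191, miR-423 and miR-320 are miRNAs that are often chosen as reference or normalizer miRNAs when small RNA of body fluids is measured. Their level and stability were examined at the embryo-maternal interface of the horse. The members were the known miRNAs named eca-miR-191, eca-miR-423 or eca-miR-320, with any letter or arm suffix. Of the 690 known miRNAs (844 with the 154 predicted ones), 4 fit this rule: eca-miR-191a, eca-miR-191b, eca-miR-423-3p and eca-miR-423-5p. miR-320 was not analysed here. Small RNA was sequenced from 28 samples of 5 Warmblood mares, none of which carried a genetic modification. Each mare went through a pregnant cycle and a cyclic control cycle in random order. All cycles received hCG, the mares were inseminated in the pregnant cycle and left unbred in the cyclic one, and sampling took place on day 13 after ovulation. The 6 groups were pregnant endometrium (n = 5), cyclic endometrium (n = 4), embryo (n = 5, embryonic tissue without its capsule), pregnant uterine fluid (UF, n = 5), cyclic UF (n = 4) and yolk sac (YS) fluid (n = 5). UF was taken up by a tampon in the uterus and YS fluid was aspirated from the conceptus. The number of a sample was taken as its mare, and no cyclic library of mare 5 was used here. The age of the mares was not given in the sources used here.

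A miRNA gene is transcribed as a hairpin precursor, and Dicer cuts from it a short duplex with a strand from the 5′ arm (5p) and a strand from the 3′ arm (3p). Either strand can be loaded onto an Argonaute protein, where it guides the repression of mRNAs that pair with its seed, and the other strand is usually degraded. miRNAs also occur outside cells, in vesicles or bound to proteins, and a fluid holds such RNA together with that of any cells it carries. A reference miRNA is meant to hold the same level in every sample. miR-191 and miR-423 were proposed for this role because they are found at moderate levels in many tissues and in blood plasma. In the horse gene table of RefSeq (assembly TB-T2T), MIR191A lies within the interval of MIR191B, inside the gene DALRD3 and next to MIR425, and MIR423 lies inside the gene NSRP1. Reads of miR-191a and miR-191b may not be separable where their sequences overlap, and how reads matching several miRNAs were counted is not given in the sources used here.

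The tissue libraries held 28204 to 590593 miRNA reads, the UF libraries 62087 to 226308 and the YS fluid libraries 4352 to 14531. A single read in YS fluid stood for 68.8 to 230 CPM, the count scaled by the library total. The miR-302, miR-367 and miR-371 miRNAs of pluripotent cells, 7 in all, summed to 8226 to 46209 CPM in the embryos and 28263 to 179730 CPM in YS fluid, and to at most 32.2 CPM in endometrium and UF, so that these markers followed the labels. Markers of other cells moved between fluid and tissue as well. The 3 erythrocyte miRNAs (miR-451, miR-144 and miR-486-5p) summed to 2670 to 11235 CPM in pregnant endometrium, 6436 to 13410 CPM in cyclic endometrium, 502 to 3233 CPM in pregnant UF and 1134 to 2837 CPM in cyclic UF. They summed to 112 to 314 CPM in the embryos and 230 to 1379 CPM in YS fluid, where they rested on 3 to 8 reads a library. The 5 miRNAs of stroma and smooth muscle summed to at least 12110 CPM in endometrium and at most 5532 CPM in UF. In the conceptus they summed to 156 to 797 CPM in the embryos and 484 to 5515 CPM in YS fluid. The YS fluid sums rested on 7 to 24 reads a library. The 2 endothelial miRNAs (both arms of miR-126) summed to 1598 to 4816 CPM in endometrium and 7.42 to 316 CPM in UF, and to 134 to 346 CPM in the embryos and 138 to 460 CPM in YS fluid. The 5 leukocyte miRNAs lay at 1268 to 3474 CPM in endometrium and UF and at 48.3 to 919 CPM in embryo and YS fluid, where 2 and 4 of them had no read, and the 5 epithelial miRNAs lay between 48634 and 131785 CPM over all groups. The part of these cells in the results below was not tested. RNA of the fluids was extracted with a serum and plasma kit and RNA of the tissues with a kit for cells and tissues, so fluid and kit cannot be told apart. A smaller amount of a cell type and less of its RNA per cell cannot be told apart in such samples either.

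3 of the 4 members had reads, and each of these 3 was found in 28 of 28 libraries. miR-191a was the most abundant with 13200 reads in all, or 0.306% of the reads, and ranked 38 among the known miRNAs. miR-423-5p had 5745 reads (rank 58) and miR-423-3p 5057 (rank 60). The lowest count in any library was 42 for miR-191a, 18 for miR-423-5p and 10 for miR-423-3p, each in YS fluid of mare 4. miR-191b had 0 reads in 28 of 28 libraries, which allows up to 3 reads in each, or 5.08 CPM in the deepest library and 689 CPM in the shallowest. It was left out of all fits by the filter on low counts, and the other 3 members passed it in every comparison.

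miR-423-5p had the widest span of levels between the groups. In the embryos it lay at 473, 345, 560, 540 and 496 TMM-normalized CPM in mares 1 to 5 (a mean of 483 ± 84.4, SD, n = 5), where TMM is the scaling of library totals by a trimmed mean of ratios over all 28 libraries. In YS fluid of the same conceptuses it lay at 3172, 2305, 2703, 2198 and 3254 (2726 ± 483, n = 5). The lowest YS fluid was therefore far above the highest embryo, and the embryos had the lowest mean and the smallest SD of the groups. In pregnant endometrium the values were 1722, 1384, 2288, 1058 and 578 (1406 ± 649, n = 5), and in pregnant UF 3464, 1588, 1518, 1808 and 1794 (2034 ± 809, n = 5), so that these groups overlapped. Mare 5 was the lowest endometrium and mare 1 the highest UF. In cyclic endometrium the values of mares 1 to 4 were 1751, 1802, 1163 and 1109 (1456 ± 371, n = 4), and in cyclic UF 4463, 2024, 7172 and 4291 (4488 ± 2107, n = 4). All 4 cyclic UF libraries lay above the 4 cyclic endometrium libraries, and mare 2 was the lowest cyclic UF. From high to low, the group means ran from cyclic UF to YS fluid, pregnant UF, cyclic endometrium, pregnant endometrium and embryo. Libraries of neighbours in this order overlapped, except those of pregnant endometrium and embryo.

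**Figure D1:**
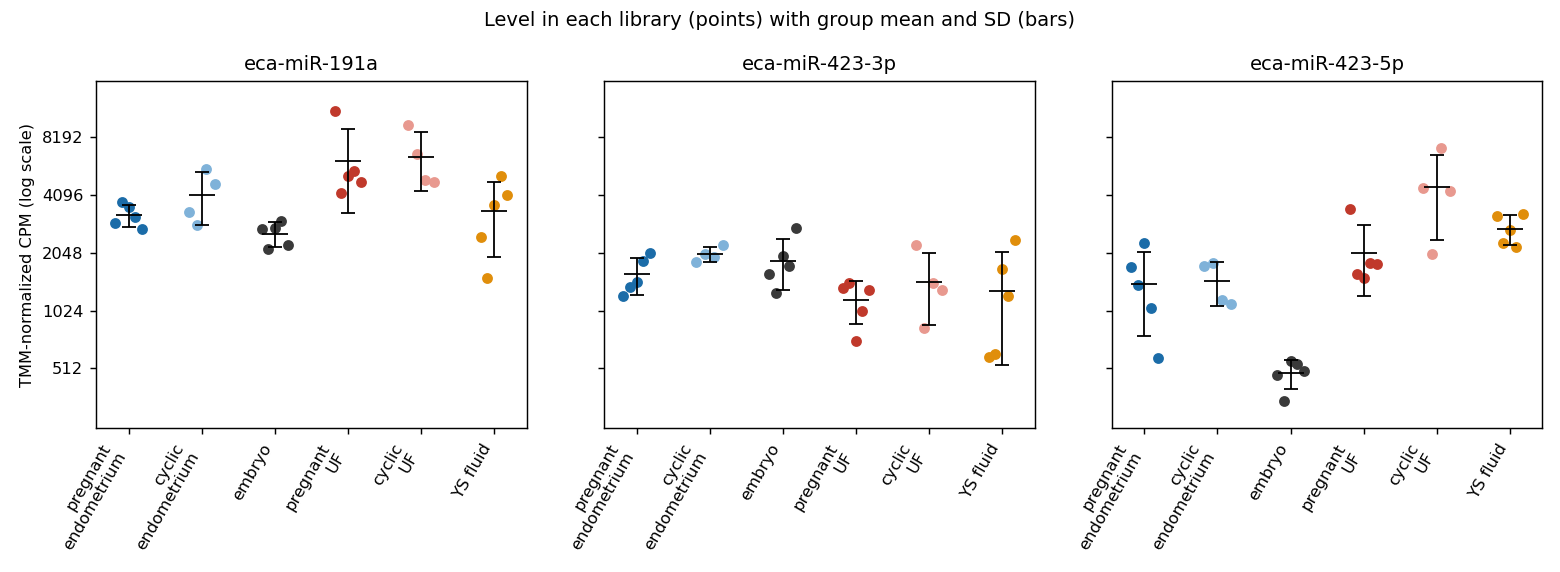
TMM-normalized CPM (log scale) of miR-191a, miR-423-3p and miR-423-5p in each of the 28 libraries (points, mares in order from left to right) by group, with the group mean and SD (bars). miR-423-5p is lowest in the 5 embryos (345 to 560) and all 5 YS fluids lie above them (2198 to 3254), whereas the groups of miR-423-3p overlap.

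Fluids were compared with tissues in a single edgeR fit of the 28 libraries, as the mean of the 3 fluid groups against the mean of the 3 tissue groups. A call needed a 2-fold difference or more and, after Benjamini-Hochberg adjustment over all miRNAs, a false discovery rate (FDR) no higher than 0.05. 1 of the 3 members was called, where 22.9% of all 441 miRNAs tested were called. miR-423-5p was higher in fluids by 1.55 on the log2 scale (SE 0.22, FDR 1.18e-06), and it was called in 14 of 14 alternative analyses (1.30 to 1.80). miR-191a was higher in fluids by 0.65 (SE 0.20, FDR 0.0129), which is under 2-fold, and it was 0.46 (FDR 0.157), 0.33 (FDR 0.252) and 0.38 (FDR 0.194) without mares 1, 2 and 5 and 0.40 (FDR 0.200) without a filter. miR-423-3p differed by -0.48 (SE 0.22, FDR 0.106). The median difference of all miRNAs tested was -0.27. Its FDR was 0.00883 without a filter on low counts (-0.77), 0.00827 with filterByExpr (-0.66), 0.0133 without mare 2 (-0.81) and 0.0105 without mare 5 (-0.76), all under 2-fold. The strand from the 5′ arm of miR-423 was thus higher in fluids, while the strand from the 3′ arm had values of the opposite sign under 2-fold, and whether they passed the FDR limit depended on the filter and the mares.

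Within the conceptus, 1 of the 3 members was called between YS fluid and embryo, where 35.1% of 259 miRNAs were called. miR-423-5p was higher in YS fluid by 2.16 (SE 0.40, FDR 0.00231), in 5 of 5 conceptuses, and was called in 15 of 15 alternatives (2.01 to 2.80). miR-191a differed by -0.06 (SE 0.33, FDR 0.885) and miR-423-3p by -0.97 (SE 0.46, FDR 0.110). miR-423-3p was lower in YS fluid in 5 of 5 conceptuses on the scale of the 28 libraries, although the groups overlapped. Its unadjusted p was 0.0554 by edgeR, and its 95% interval ran from -1.97 to 0.03.

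In the uterus of cyclic mares, 1 of the 3 members was called between UF and endometrium, where 30.8% of 328 miRNAs were called. miR-423-5p was higher in cyclic UF by 1.53 (SE 0.47, FDR 0.0218), in 4 of 4 mares. The call was lost without mare 3 (1.07, FDR 0.0983) or mare 4 (1.39, FDR 0.132), in fits that kept 3 mares. miR-191a differed by 0.49 (SE 0.36, FDR 0.352) and miR-423-3p by -0.59 (SE 0.43, FDR 0.350). In pregnant mares edgeR called none of the 3 members between UF and endometrium, where 33.7% of 359 miRNAs were called. DESeq2 called 0 of the 3, where it called 116 of 359 miRNAs. By edgeR 1 member had an unadjusted p under 0.05, and the share of all miRNAs under that limit is not given here. miR-423-5p was higher in pregnant UF in 4 of 5 mares, with a difference of 0.55 (SE 0.37, FDR 0.265, 95% interval -0.24 to 1.34). miR-191a had an FDR of 0.0171 at a difference of 0.96 (SE 0.29), just under 2-fold, and was higher in UF in 5 of 5 mares without overlap of the groups. Its FDR was 0.0731 without mare 1, with a difference of 0.60, and 0.0545 without mare 3. miR-423-3p differed by -0.41 (SE 0.27, FDR 0.254).

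The fluid-tissue difference of miR-423-5p was larger in the conceptus than in the pregnant uterus. The interaction (YS fluid minus embryo against pregnant UF minus pregnant endometrium) was 1.85 (SE 0.55, FDR 0.0144). miR-423-5p was the only member called of the 3, where 33.5% of 400 miRNAs were called. The call was lost without mare 2 (1.51, FDR 0.0953) or mare 3 (1.66, FDR 0.0671). The interaction was -0.83 (SE 0.41, FDR 0.127) for miR-191a and -0.35 (SE 0.52, FDR 0.737) for miR-423-3p.

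**Figure D2:**
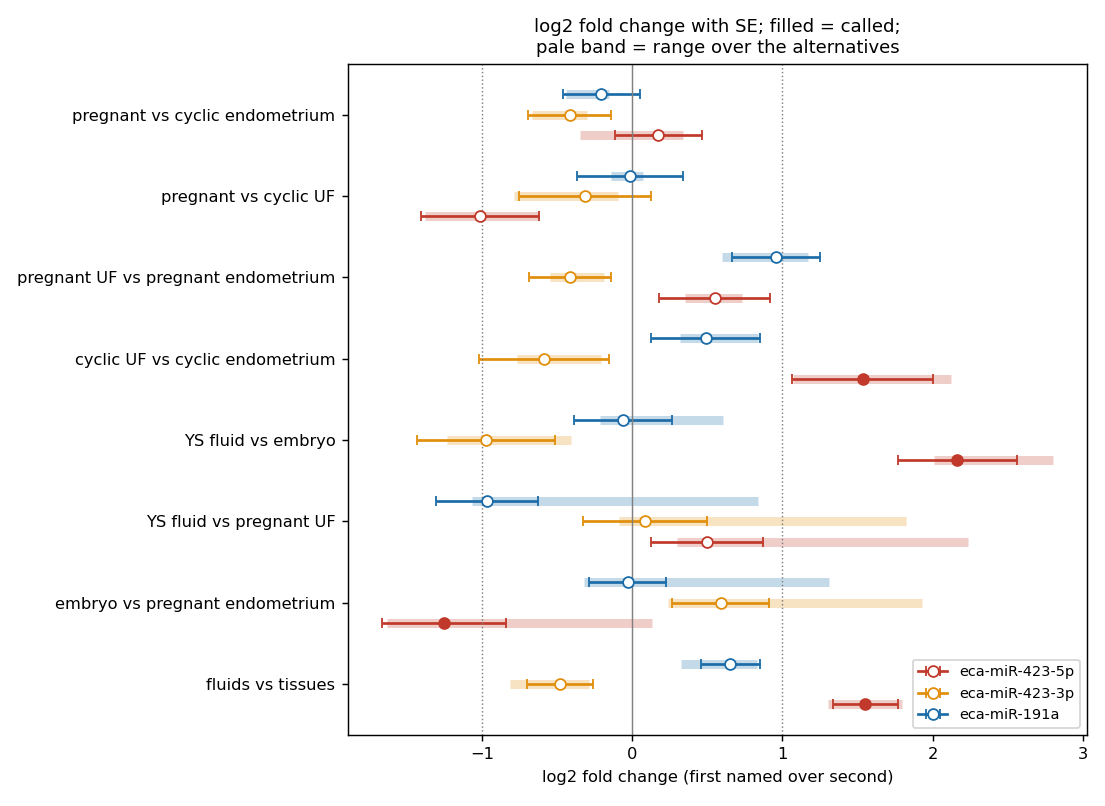
log2 fold change of the 3 members in 8 comparisons (x axis, the group named first over the second), with the SE (bars) and the range over the alternative analyses (pale bands). Filled points passed both limits of a call. miR-423-5p was filled in fluids against tissues (1.55), YS fluid against embryo (2.16), cyclic UF against cyclic endometrium (1.53) and embryo against pregnant endometrium (-1.25), and the last of these bands crosses 0.

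miR-423-3p had the narrowest span of group means on the TMM scale (0.82 on the log2 scale, against 1.28 for miR-191a). The order turned with library totals (2.15 against 1.88) and RLE size factors (1.51 against 1.31), and the spans were 1.09 and 1.08 with known miRNAs only. In pregnant endometrium it lay at 1220, 1366, 1434, 1849 and 2037 TMM-normalized CPM (1581 ± 346, n = 5) and in cyclic endometrium at 1833, 2007, 1950 and 2259 (2012 ± 180, n = 4). The embryos had 1581, 1266, 1968, 1751 and 2741 (1862 ± 555, n = 5). The fluids reached lower, with 1337, 1432, 714, 1019 and 1315 in pregnant UF (1163 ± 295, n = 5), 2236, 829, 1419 and 1311 in cyclic UF (1449 ± 584, n = 4), and 584, 608, 1685, 1221 and 2376 in YS fluid (1295 ± 759, n = 5). All neighbours in the order of the group means overlapped and differed by less than the larger of their SDs. The YS fluid values rested on 14, 24, 48, 10 and 65 reads.

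miR-191a was the highest of the 3 in each group mean. It lay at 2933, 3751, 3528, 3159 and 2714 TMM-normalized CPM in pregnant endometrium (3217 ± 424, n = 5) and at 3337, 2841, 5612 and 4644 in cyclic endometrium (4108 ± 1258, n = 4). The embryos had 2727, 2135, 2769, 3005 and 2236 (2574 ± 372, n = 5). The UF values were higher, with 11149, 4191, 5158, 5443 and 4749 in pregnant UF (6138 ± 2840, n = 5) and 9491, 6673, 4887 and 4803 in cyclic UF (6464 ± 2195, n = 4). Mare 1 had the highest value in both kinds of UF. YS fluid had 2462, 1520, 3616, 5128 and 4094 (3364 ± 1407, n = 5), a range that held all 5 embryos. Neighbours in the order of the group means overlapped in every case.

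Pregnancy was compared with the cyclic state within mares, with the mare as a block. In the endometrium none of the 3 members was called, where 3.37% of 386 miRNAs were called. The log2 differences were -0.20 for miR-191a (SE 0.25, FDR 0.818, 95% interval -0.70 to 0.29), -0.41 for miR-423-3p (SE 0.28, FDR 0.571, -0.96 to 0.13) and 0.17 for miR-423-5p (SE 0.29, FDR 0.915, -0.39 to 0.74). In UF none of the 3 was called either, where 4.92% of 305 miRNAs were called. miR-191a differed by -0.01 (SE 0.35, FDR 0.996, -0.70 to 0.67) and miR-423-3p by -0.31 (SE 0.44, FDR 0.906, -1.17 to 0.55). miR-423-5p was lower in pregnant UF in 4 of 4 mares, by 3464 against 4463, 1588 against 2024, 1518 against 7172 and 1808 against 4291 TMM-normalized CPM in mares 1 to 4. The difference in mare 3 was by far the widest. The fitted value was -1.01 (SE 0.40, 95% interval -1.79 to -0.24), with an unadjusted p of 0.0105 and an FDR of 0.161 by edgeR's quasi-likelihood test, so it did not pass the test over all miRNAs, and without mare 3 it was -0.62. At an unadjusted p under 0.05 by edgeR there were 0 members in the endometrium and 1 in UF, and the share of all miRNAs under that limit is not given here. DESeq2 called 0 members in either, where it called 12 of 386 miRNAs in the endometrium and 10 of 305 in UF. The intervals reach a difference of at least 0.70 on the log2 scale for each member in endometrium and in UF, and therefore do not show equal levels. The pregnancy effect was not shown to differ between UF and endometrium for any member by edgeR, where 1.69% of 415 miRNAs were called. The same held by DESeq2, where 8 of 415 were called. The interaction was -1.30 (SE 0.50, unadjusted p = 0.0138, FDR 0.439 by edgeR) for miR-423-5p, and -0.35 without mare 3.

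Comparisons across the uterine and embryonic side depended on how the libraries were scaled. Between embryo and pregnant endometrium, 1 of the 3 members was called, where 71.3% of 359 miRNAs were called. miR-423-5p was lower in the embryo, at -1.25 (SE 0.42, FDR 0.0176), but the median of all miRNAs was itself -1.03. With library totals the median was 0.30 and miR-423-5p was at 0.13, and with RLE size factors the values were -0.56 and -0.82 (FDR 0.120). With the mare as a block the difference was -1.13 and the call was lost (FDR 0.0788), and it was also lost without mare 2 (-1.10, FDR 0.0803). In CPM of the library total, the embryos lay between 603 and 1280 and pregnant endometrium between 344 and 1234, so that the groups overlapped. miR-191a differed by -0.03 (SE 0.25, FDR 0.917) and miR-423-3p by 0.59 (SE 0.32, FDR 0.113), and with library totals these were 1.31 and 1.93. Between YS fluid and pregnant UF edgeR called none of the 3, where 59.6% of 277 miRNAs were called. Of the 3, 1 had an unadjusted p under 0.05 by edgeR, and the share of all miRNAs under that limit is not given here. miR-191a was at -0.96 (SE 0.34, FDR 0.0244), miR-423-3p at 0.09 (SE 0.41, FDR 0.872) and miR-423-5p at 0.50 (SE 0.37, FDR 0.267). The median of all miRNAs was -0.54 here and 1.14 with library totals, and the members then stood at 0.84, 1.82 and 2.24. With either scaling miR-423-5p lay above the median of all miRNAs, and DESeq2 called it at 1.22 (FDR 0.000348), where it called 145 of 277 miRNAs.

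A ratio of 2 counts from the same library does not change with the scaling. In the embryos miR-423-5p had 26, 27, 35, 25 and 53 reads in mares 1 to 5 beside 87, 99, 123, 81 and 293 reads of miR-423-3p, so that 21.1% ± 3.33 (SD, n = 5) of the miR-423 reads came from the 5p strand. In YS fluid it had 76, 91, 77, 18 and 89 reads beside 14, 24, 48, 10 and 65, a share of 69.5% ± 11.6 (n = 5). The 3p strand was the more frequent in 5 of 5 embryos and the 5p strand in 5 of 5 YS fluids. The highest embryo share was 23.6% (95% Wilson interval 16.5 to 32.5%, 106 reads) and the lowest share in YS fluid was 57.8% (49.9 to 65.3%, 154 reads). The shallowest YS fluid held 28 miR-423 reads, with 64.3% from the 5p strand (45.8 to 79.3%). These intervals cover counting error only, since reads without molecular identifiers are not independent molecules.

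In cyclic UF the 5p strand had 561, 266, 273 and 671 reads beside 281, 109, 54 and 205 of the 3p strand (74.4% ± 7.30, n = 4), and in cyclic endometrium 85, 432, 235 and 219 beside 89, 481, 394 and 446 (41.6% ± 7.71, n = 4). All 4 cyclic UF shares lay above all 4 endometrium shares. In pregnant UF the counts were 311, 122, 153, 94 and 116 beside 120, 110, 72, 53 and 85 (62.9% ± 7.84, n = 5), and in pregnant endometrium 357, 299, 729, 206 and 99 beside 253, 295, 457, 360 and 349 (45.8% ± 16.4, n = 5). Pregnant endometrium was the most variable group, from 22.1% in mare 5 to 61.5% in mare 3, and overlapped with pregnant UF. The 5p strand was thus the more frequent in 14 of 14 fluid libraries, and the 3p strand in 5 of 5 embryos and 4 of 4 cyclic endometria. Pregnant endometrium was mixed, with 58.5%, 50.3%, 61.5%, 36.4% and 22.1% in mares 1 to 5. Some shares were close to equal. The 95% Wilson interval crossed an equal share in cyclic endometrium of mares 1 (41.5 to 56.2%) and 2 (44.1 to 50.6%). It did so too in pregnant UF (46.2 to 58.9%) and pregnant endometrium (46.3 to 54.3%) of mare 2. In YS fluid it crossed an equal share in mares 4 (45.8 to 79.3%) and 5 (49.9 to 65.3%).

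The mean log2 ratio of the 5p to the 3p strand was higher in YS fluid than in the embryo by 3.15, or 8.88-fold (exact two-sided permutation test, p = 0.00794, the smallest that 5 against 5 samples can give, adjusted p = 0.0397 over 10 ratio tests). It was higher in cyclic UF than in cyclic endometrium by 2.08, or 4.22-fold (exact permutation p = 0.0286, the smallest that 4 against 4 can give, adjusted p = 0.0952). In pregnant mares the UF-endometrium difference was 1.06 (exact permutation p = 0.0635, adjusted p = 0.159). Between pregnant and cyclic samples it was 0.21 in the endometrium (exact permutation p = 0.746) and -0.81 in UF (exact permutation p = 0.0794, adjusted p = 0.159). A sign-flip test within conceptuses cannot go below p = 0.0625 with 5 pairs, and gave that value for YS fluid and embryo (adjusted p = 0.208, exact).

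The ratio of miR-423-5p to miR-191a, a normalization to the other member, was also higher in YS fluid than in the embryo, by 2.21 on the log2 scale or 4.61-fold (exact permutation p = 0.00794, adjusted p = 0.0397). The embryos lay at -2.51, -2.61, -2.29, -2.45 and -2.16 in mares 1 to 5 and YS fluid at 0.36, 0.60, -0.42, -1.20 and -0.33. Between UF and endometrium this ratio differed by -0.24 in pregnant mares (exact permutation p = 0.413) and by 0.87 in cyclic mares (exact permutation p = 0.229). Pregnant UF was narrow, from -1.76 to -1.40, whereas cyclic UF ran from -1.72 to 0.55. The difference between pregnant and cyclic UF was -0.96 (exact permutation p = 0.0952, adjusted p = 0.159).

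**Figure D3:**
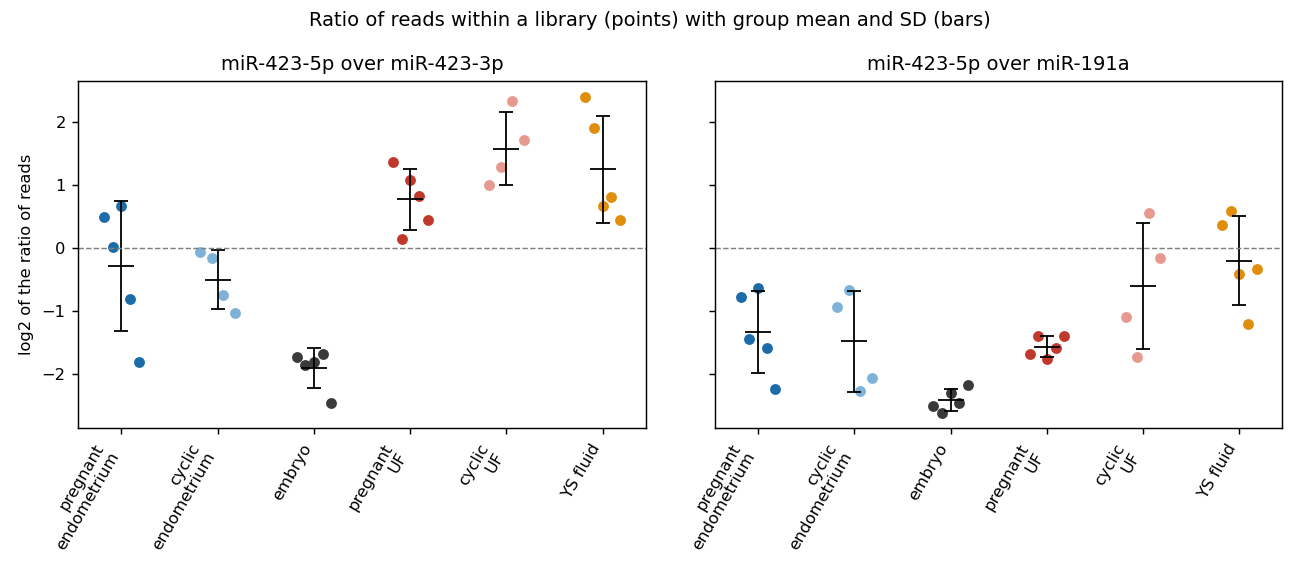
log2 ratio of miR-423-5p reads to miR-423-3p reads (left) and to miR-191a reads (right) in each library (points), with group means and SDs (bars). On the left all 14 fluid libraries lie above 0 and all 5 embryos lie between -2.46 and -1.68. On the right pregnant UF and pregnant endometrium overlap, and all 5 YS fluids lie above all 5 embryos.

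The arms of other miRNAs were looked at in the same way, a description that was added after the miR-423 values were seen and that carries no test. Of 48 miRNAs with a 5p and a 3p entry, 14 had at least 140 reads on each arm over the 28 libraries. The 5p to 3p ratio was higher in the fluid for 6 of the 14 in pregnant UF against endometrium, for 3 in cyclic UF against endometrium and for 5 in YS fluid against embryo. The median differences of the 14 were -0.60, -0.39 and -0.05 on the log2 scale. miR-423 ranked 2, 1 and 1 of the 14 in the 3 comparisons, and it was the only one of the 14 with a higher ratio in the fluid in all 3. A lower ratio in the fluid in all 3 was found for miR-671 (-1.89, -2.23 and -2.59), miR-140, miR-34b, miR-28 and miR-486. In YS fluid against embryo, miR-34b (-0.012) and miR-486 (-0.011) were close to 0. The mean difference of miR-671 (-2.24) was larger in size than that of miR-423 (2.10), so a shift of the same direction in all 3 was not particular to miR-423. miR-148b had the next highest mean, with 2.43 and 1.85 in the uterus but -1.33 in the conceptus, and miR-671 had the lowest values in cyclic UF (-2.23) and YS fluid (-2.59). Some arms had few reads over the 28 libraries, such as 153 and 162 for miR-671 and 170 for the 5p strand of miR-148b. In the shallow YS fluid libraries such ratios may depend largely on the 0.5 added to each count, and the ranks with them. The 3p strands of miR-199a and miR-199b had almost equal counts (24955 and 24910), so these entries may not be separate.

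**Figure D4:**
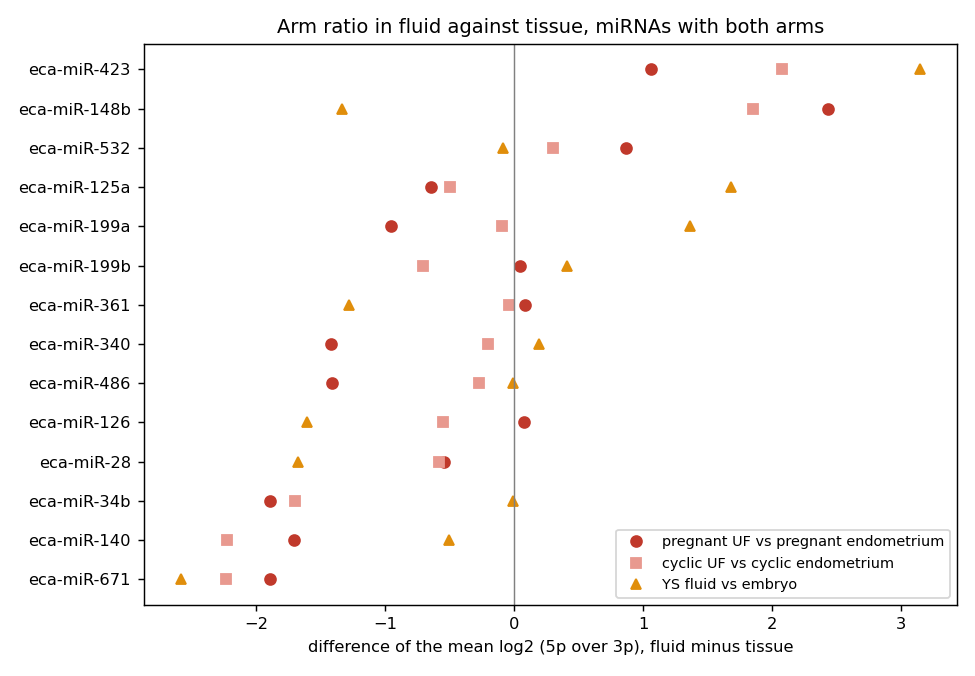
Difference of the mean log2 ratio of 5p to 3p reads between fluid and tissue (x axis) for 14 miRNAs with both arms counted, in 3 fluid-tissue comparisons (symbols), ordered by the mean of the 3. miR-423 is at the top with 1.06, 2.08 and 3.15, and most other points lie below 0.

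Stability was described by the SD of log2 TMM-normalized CPM (with 0.5 added to each count) over the 28 libraries, among the 151 known miRNAs whose level averaged at least 100 CPM over the 6 groups. A low rank stands for a small SD. miR-423-3p had an SD of 0.56 (rank 9) and miR-191a of 0.63 (rank 10), against a median of 1.85 for the 151 miRNAs. miR-423-5p had an SD of 1.09 (rank 34). The group means spanned 0.82 for miR-423-3p (rank 6), 1.28 for miR-191a (rank 13) and 3.08 for miR-423-5p (rank 55), with a median of 4.46. Within groups the pooled SDs were close to each other, at 0.52 for miR-423-3p (rank 29), 0.46 for miR-191a (rank 16) and 0.52 for miR-423-5p (rank 28), with a median of 0.81. On the TMM scale the strands of miR-423 therefore had a like spread within groups and differed in how far the group means lay apart. The pooled SDs of miR-423-3p and miR-423-5p were less alike with RLE size factors (0.50 and 0.67). They were 0.48 and 0.57 with known miRNAs only and 0.54 and 0.59 with library totals. Counting error made up 11.5% of the within-group variance of miR-423-3p, 5.01% of that of miR-191a and 9.88% of that of miR-423-5p. The rank of miR-423-3p depended on the scaling. With library totals its SD was 0.97 (rank 32), and with RLE size factors it was 0.71 (rank 18), while miR-191a had ranks of 12 and 10 and miR-423-5p of 41 and 43.

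The smallest SDs over the 28 libraries were those of miR-128 (0.37), miR-30c (0.42), miR-324-5p (0.48), miR-200b (0.49) and miR-744 (0.51). The paper reports miR-30c as lower in pregnant than in cyclic endometrium of these mares. In the edgeR fit used here 0 of 386 miRNAs were called lower in that comparison. miR-324-5p averaged 111 CPM, near the value of a single read in YS fluid, and its SD expected from counting alone (0.68) exceeded its SD, so its small SD cannot be read as stability. miR-200b belongs to a family that is typical of epithelial cells. Of 10 other miRNAs used as references, 8 were analysed here, and their median SD was 1.1. miR-25 had the smallest at 0.52 (rank 6) and was the only one of the 8 below miR-191a. miR-93 followed at 0.64 (rank 11), then miR-16 at 0.84, miR-103 at 0.98, miR-26a at 1.24 and miR-92a at 1.32. The largest belonged to miR-24 at 2.13 (rank 86) and let-7a at 3.06 (rank 134). let-7, which restrains pluripotency genes, is known to rise as cells differentiate, and let-7a was lower in the embryo than in pregnant endometrium, at -6.50 (SE 0.45, FDR 2.54e-07).

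**Figure D5:**
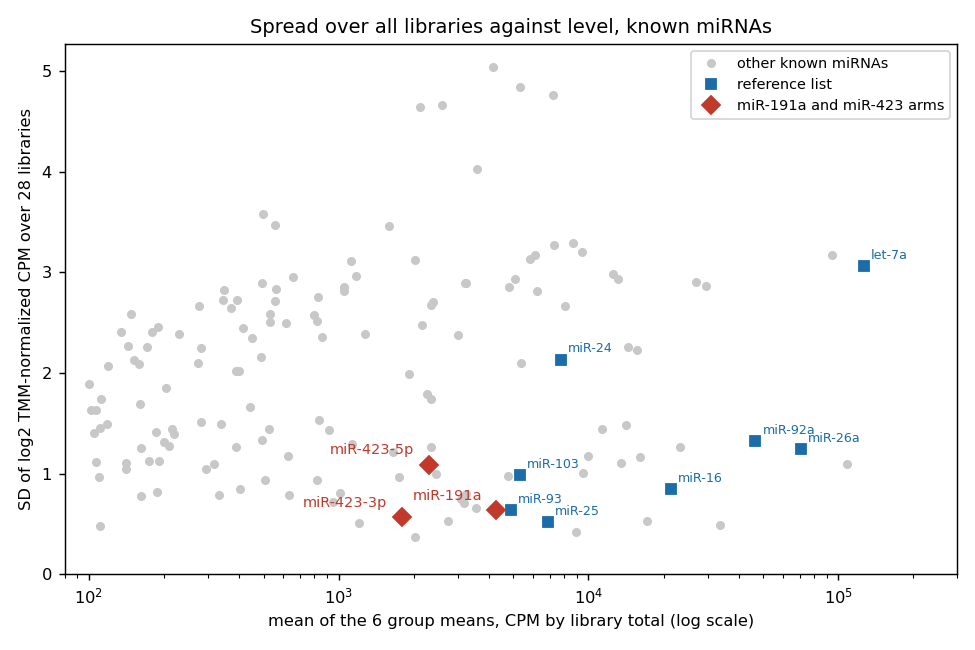
SD of log2 TMM-normalized CPM over the 28 libraries against the mean level (CPM by library total, log scale) for 151 known miRNAs. The members with reads (red diamonds) lie at SDs of 0.56, 0.63 and 1.09, and the 8 reference miRNAs (blue squares) between 0.52 and 3.06.

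By edgeR, none of the 8 reference miRNAs was called between pregnant and cyclic endometrium (beside 3.37% of all miRNAs) or pregnant and cyclic UF (4.92%). At shares this low, no call among 8 says little about the list. None was called between UF and endometrium either, beside 33.7% of all miRNAs in pregnant and 30.8% in cyclic mares. By the same test 3 had an unadjusted p under 0.05 in pregnant against cyclic endometrium and 0 in pregnant against cyclic UF. Between UF and endometrium 5 did so in pregnant mares and 3 in cyclic mares. The share of all miRNAs under that limit is not given here. Between YS fluid and embryo, 3 of the 8 were called, beside 35.1% of all miRNAs. miR-92a was higher (2.86, SE 0.27, FDR 4.88e-05) and miR-16 (-2.28, SE 0.33, FDR 0.000615) and miR-26a (-1.61, SE 0.30, FDR 0.00241) were lower in the fluid. Between fluids and tissues as a whole, 1 of the 8 was called beside 22.9% of all miRNAs, miR-92a at 1.63 (SE 0.18, FDR 5.89e-08). Their median differences were 0.17 and 0.05 in these comparisons, beside -0.28 and -0.27 for all miRNAs tested. Between embryo and pregnant endometrium 2 were called higher and 3 lower, beside 71.3% of all miRNAs called, and between YS fluid and pregnant UF 2 were higher and 3 lower, beside 59.6%. For the interaction of conceptus and uterus, 4 were called higher and 2 lower, beside 33.5%.

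The levels of the members were compared with those of 148 other known miRNAs by Pearson's r of log2 TMM-normalized CPM over the 28 libraries. These values are descriptive, since the libraries share groups, mares and depth. miR-423-5p was most like miR-197 (0.88), miR-328 (0.73) and miR-92b (0.71). miR-191a was most like miR-211 (0.80), miR-34b-3p (0.75) and miR-1180 (0.74). miR-197, miR-328 and miR-211 averaged only 111, 274 and 190 CPM, where a single read in YS fluid stood for 68.8 to 230 CPM. Their variance expected from counting was 208%, 192% and 282% of their within-group variance. Their r may therefore depend on depth and on the 0.5 added to each count, which was not tested. miR-423-3p reached at most 0.52 with miR-15b, followed by miR-148a (0.50) and miR-30c (0.45). Among the members, r was 0.52 between miR-191a and miR-423-5p, 0.06 between miR-191a and miR-423-3p and -0.28 between the strands of miR-423.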

How the data were processed

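The authors removed adapters with cutadapt 1.11, discarded short, low-quality and ambiguous reads, counted reads on the known horse miRNAs of miRBase and on predicted ones (EquCab2.0) with miRPro, and deposited raw read counts per miRNA. Known and predicted miRNAs were analysed together with edgeR 4.0.16 in R 4.3.3 (at least 1 CPM in as many libraries as the smaller group, TMM, quasi-likelihood test, Benjamini-Hochberg adjustment), each comparison on its own libraries. 95% intervals of log2 differences use the t quantile at the degrees of freedom of the test. Mares were blocks where pregnancy was compared with the cyclic state, so mare 5 entered only the scaling and the low-count filter there. Same-numbered pregnant and cyclic samples deviated together in endometrium (mean r 0.139, others -0.0355) and UF (0.232, others -0.0593). Between UF and endometrium the mean r was 0.057 (others -0.018) in pregnant and 0.011 (others -0.0033) in cyclic mares. It was 0.077 (others -0.019) between YS fluid and pregnant UF. It was negative between YS fluid and embryo (-0.094, others 0.023) and between embryo and pregnant endometrium (-0.233, others 0.050). Counts over mares or conceptuses rest on the sample numbers alone there. In the blocked fits of pregnant against cyclic samples the dispersion was pooled over all miRNAs (1158 degrees of freedom in endometrium and 915 in UF). The edgeR p-values and intervals there do not measure a member's own spread between mares. The fits without a mare block treated libraries of the same mare as independent. Levels are TMM-normalized CPM over 28 libraries. Ratios (0.5 added to each count) were tested by exact permutation with SciPy 1.17.1. Ratios with miR-320 were not analysed here, which left 10 of 15 tests. The edgeR fit without a block was tested on simulated counts for pregnant UF against pregnant endometrium and for YS fluid against embryo. The simulation used a single dispersion and as many miRNAs raised as lowered. Blocked fits, interactions and the fit of all groups were not simulated, and neither was a shift of most miRNAs in the same direction.

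Named miRNAs were the members, the 3 most correlated miRNAs of each, the 5 of smallest SD, a list of 10 reference miRNAs and cell type markers. let-7a and the reference miRNAs called between YS fluid and embryo were singled out after their values were seen, as were miR-148b and miR-671. Members and lists were chosen with earlier results of these data known. Alternatives were library totals, RLE size factors, DESeq2 1.42.0, the likelihood ratio test, no filter, filterByExpr, known miRNAs only, FDR alone, the mare block added or removed, 28 libraries in a single fit, a pseudocount of 2, and each mare left out. FDR alone is the reported fit without the fold limit, so a call cannot be lost in it, and the counts of alternatives include it. No 2 libraries of the same group were identical.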

Additional observations from a re-analysis of the deposited data

Results flagged for a closer look

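Each of 30 sets of values (3 levels and 2 ratios in 6 groups) was searched for a library far from the rest of its group, for which chance alone gives about 1 in 20 sets. There were 3 such values, in 2 libraries. In pregnant UF, mare 1 had the highest level of miR-191a (11149 TMM-normalized CPM) and of miR-423-5p (3464), each well apart from the other 4 mares. Both flags come from the same library. In the embryos, mare 5 had the lowest log2 ratio of miR-423-5p to miR-423-3p (-2.46), with 53 reads beside 293.

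The fluid-tissue difference of miR-423-5p was larger in the conceptus than in the pregnant uterus by 1.85 on the log2 scale (edgeR interaction, FDR 0.0144). It was higher in YS fluid than in the embryo in 5 of 5 conceptuses and higher in pregnant UF than in endometrium in 4 of 5 mares.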

How the results depend on the processing

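Depth limits the YS fluids, where the members rested on 10 to 112 reads a library. The number of members called (of 3) changed as follows. Between pregnant UF and endometrium (0), it was 1, miR-191a, with library totals, filterByExpr, known miRNAs only and FDR alone, and 0 to 1 when a mare was left out. Between cyclic UF and endometrium (1), it was 0 to 1 with a mare left out. Between YS fluid and pregnant UF (0), it was 2 with library totals, 1 (miR-423-5p) with RLE, filterByExpr, DESeq2 and known miRNAs only, 1 (miR-191a) with FDR alone, and 0 to 1 with a mare left out. Between embryo and endometrium (1), it was 2 with library totals (miR-191a and miR-423-3p), 0 with filterByExpr and with the replicate block, and 0 to 1 with a mare left out, and with RLE and DESeq2 the member called was miR-423-3p (1.07 with either). For fluids against tissues it was 2 with FDR alone. For the conceptus-uterus interaction (1), it was 2, with miR-191a, with filterByExpr and known miRNAs only, and 0 to 1 with a mare left out. The replicate block, added or removed, changed no other call of a member.

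The ratio differences between YS fluid and embryo (3.15 and 2.21) had an adjusted p of 0.208 in the paired sign-flip test, and 2.91 to 3.32 and 1.956 to 2.44 with a mare left out (adjusted p 0.0952 to 0.143), designs in which the smallest p cannot pass after adjustment. Without mare 3 the ratios between pregnant and cyclic endometrium turned to -0.11 (5p to 3p, up to 0.59 without another mare) and -0.29 (5p to miR-191a, up to 0.45).

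Values near 0 changed sign. For miR-423-5p in pregnant against cyclic endometrium they were -0.061 with library totals, -0.35 without mare 3 (up to 0.34 without another mare) and -0.081 in the single fit of 28 libraries. For miR-191a in pregnant against cyclic UF they were 0.015 with RLE, 0.016 with DESeq2, 0.071 without mare 2 (down to -0.14 without another) and 0.00046 without the block. For miR-191a in YS fluid against embryo they were 0.60 with library totals, 0.075 with RLE, 0.049 without a filter, 0.35 with filterByExpr, 0.063 with DESeq2, 0.069 with known miRNAs, 0.17 without mare 1, 0.0011 without mare 2 (down to -0.21 without another) and 0.37 in the single fit. Between YS fluid and pregnant UF, miR-191a was at 0.84 with library totals and miR-423-3p at -0.087 without mare 5 (up to 0.34 without another). Between embryo and endometrium, miR-191a was at 1.31 with library totals, 0.46 with RLE, 0.37 with filterByExpr, 0.45 with DESeq2, 0.14 with known miRNAs and 0.17 without mare 2 (down to -0.24 without another), and miR-423-5p at 0.13 with library totals. The pregnancy interaction of miR-423-3p (-0.0066) was 0.26 with library totals, 0.23 with RLE and DESeq2, 0.065 without a filter, 0.082 with filterByExpr, 0.17 with known miRNAs, 0.098 in the single fit, and 0.40, 0.49, 0.40 and 0.083 without mares 1, 3, 4 and 5 (-0.44 without mare 2). Its conceptus-uterus interaction was 0.029 without mare 1 (down to -0.51 without another). The cause was not tested in any of these. All other log2 differences and ratios of the members kept their direction.

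The number of all miRNAs called moved by over 1.5 times in 8 comparisons. It ranged from 0 to 15 (13 reported) for pregnant against cyclic endometrium, 0 to 26 (15) for UF and 0 to 20 (7) for the pregnancy interaction. For pregnant UF against endometrium it was 75 to 136 (121), for YS fluid against embryo 40 to 140 (91) and for YS fluid against pregnant UF 90 to 187 (165). It was 140 to 274 for embryo against endometrium and 67 to 134 (134) for the conceptus-uterus interaction. The low ends of 75, 90 and 140 came with filterByExpr, which tested 171, 124 and 179 miRNAs, where the reported fits tested 359, 277 and 359. The share called was larger there. The 40 calls came with filterByExpr (87 tested) and without mare 5 (261 tested).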
